A study of Mus musculus with 401 samples.

Results

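The BCL2 family apoptosis genes described here are 10 genes, taken by their symbols and Ensembl identifiers from the 43633 gene identifiers of the count tables. The members grouped here as anti-apoptotic were Bcl2 (ENSMUSG00000057329), Bcl2l1 (ENSMUSG00000007659, which encodes BCL-XL), Mcl1 (ENSMUSG00000038612) and Bcl2l10 (ENSMUSG00000032191). The effectors were Bax (ENSMUSG00000003873) and Bak1 (ENSMUSG00000057789). The BH3-only members were Bcl2l11 (ENSMUSG00000027381, BIM), Bbc3 (ENSMUSG00000002083, PUMA), Pmaip1 (ENSMUSG00000024521, NOXA) and Bid (ENSMUSG00000004446). On GRCm38 they lie on 8 chromosomes, with Bcl2l10 at chr9:75347758-75351632 on the plus strand, Bcl2l1 at chr2:152780668-152831728 on the minus strand, Mcl1 at chr3:95658788-95663176 on the plus strand and Bak1 at chr17:27019810-27029009 on the minus strand. Exons of Bax share 192 bases with the same-strand coding gene Gm45808, and those of Bcl2 share 558 bases with the antisense gene D630008O14Rik. Exons of Bak1 share 177 and 437 bases with the opposite-strand gene Ggnbp1, and those of Bid share 628 bases with the opposite-strand gene Bcl2l13.

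Proteins of the BCL2 family decide whether the outer mitochondrial membrane stays sealed. BAX and BAK1 form pores through which cytochrome c escapes and caspases are activated, BCL2, BCL-XL and MCL1 hold them in check, and BH3-only proteins such as BIM, PUMA, NOXA and BID tip this balance towards death after stress or loss of survival signals. In the ovary the family is known for its part in the death of oocytes after DNA damage and of granulosa cells in follicles that degenerate.

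Single oocytes and pools of the cumulus cells around them were profiled by RamDA-seq, which copies total RNA along whole transcripts. All mice were B6D2F1 (C57BL/6 x DBA/2) females, and every complex came from a fully grown follicle dissected in medium with the phosphodiesterase inhibitor IBMX. In the first set young mice were 2 months old, middle mice 9 months and old mice 14 months, all fed ad libitum, and CR mice were 9 months old on calorie restriction. The second set held mice of 2, 4, 9 and 14 months, and a further group of 2 months without hyperovulation. Its mice were taken as fed ad libitum, since no diet is named for them. All other groups of both sets were taken as hyperovulated, as the methods describe, by eCG or CARD HyperOva, and which of them each mouse received is not given in the sources used here. The label Old1_2 joins 2 mice under 1 name.

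The first set gave oocyte libraries of 2 young mice (16 libraries), 4 middle mice (14), 2 old labels (16) and 3 CR mice (27), and 15, 15, 16 and 25 cumulus libraries of the same mice. The second set gave 32 oocyte libraries of 8 mice at 2 months without hyperovulation, and 24 of 5 mice, 39 of 8, 16 of 4 and 16 of 5 at 2, 4, 9 and 14 months after it, with as many cumulus libraries except 40 at 4 months. Total counts per library ranged from 559305 to 4536690 in oocytes and from 848243 to 2501005 in cumulus cells of the first set, and from 1238441 to 2583456 and from 510029 to 1147286 in the second. CR libraries were deeper than middle libraries, with medians of 3578882 and 2332126 counts in oocytes and 2019007 and 1091806 in cumulus cells, so diet and library preparation or depth cannot be told apart. Counts were summed per mouse and cell type, and the mouse is n throughout. Levels are counts scaled to the total of each mouse and cell type (CPM), or CPM per kilobase of gene length (RPKM) wherever genes are compared with each other.

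The cell type labels were checked against marker genes. The 13 oocyte markers, led by Gdf9, summed to means of 19263 to 24143 CPM in the groups of oocytes and to 12.7 to 35.7 CPM in those of cumulus cells. The 12 cumulus or granulosa markers, led by Gja1, summed to means of 12145 to 16854 CPM in cumulus cells. In oocytes they stood at 4.81% of their cumulus level in the first set (range over mice 1.79 to 9.26%, n = 11) and at 2.12% in the second (n = 30). The share of the second set rested mostly on Serpine2, with group means of 197 to 206 CPM in sums of 300 to 335 CPM. Across groups of the first set this share was 3.50% in young, 4.84% in middle, 6.69% in old and 4.39% in CR oocytes, and Old1_2 held the highest value. The oocyte library of 1 complex of Middle3 went against its label, with 217 CPM of oocyte markers and 23451 CPM of cumulus markers, and that complex was left out, which leaves Middle3 with 1 oocyte library. Between cell types of the second set all 13 oocyte markers were called higher and all 12 cumulus markers lower in oocytes. Of the other marker lists 5 of 5 theca or interstitial, 3 of 4 luteal, 1 of 4 endothelial, 2 of 3 leukocyte and 3 of 4 stroma genes were called lower in oocytes, and 0, 1, 3, 0 and 1 higher.

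In oocytes the family was dominated by Bcl2l10, a gene known for its expression in the ovary. Its level was 921 ± 184 RPKM (SD, n = 11 mice) in the first set and 1110 ± 55.2 RPKM (n = 30) in the other, which was 96.1% and 97.1% of the summed RPKM of the members. By RPKM it ranked 27 among 34572 genes with a count in oocytes of the first set and 25 among 32375 in the second. Bcl2l1 came next, at 18.8 ± 3.12 and 18.3 ± 1.25 RPKM, and its range met neither that of Bcl2l10 above nor that of any member below in either set.

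Below these genes, 4 members lay close together in oocytes. Mean levels per length in the first set were 4.73 RPKM for Mcl1, 3.87 for Bax, 3.85 for Bcl2l11 and 3.79 for Bid, and their ranges over mice overlapped. In the second set Bid and Bax were at 4.29 RPKM each, Bcl2l11 at 2.92 and Mcl1 at 2.66, again with overlap between neighbours. Bak1, Bcl2, Pmaip1 and Bbc3 formed the low end, with means of 0.0332 to 0.336 RPKM in the first set and 0.00173 to 0.133 RPKM in the second. Their ranges overlapped from 1 to the next, and they lay without overlap below the members above them.

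Bbc3 was close to absent from oocytes. It had a count in 7 of 73 oocyte libraries of the first set and in 1 of 127 of the second. In the second set its count was 0 over all oocytes at 4, 9 and 14 months and at 2 months without hyperovulation, which allows levels of up to 0.0374, 0.0894, 0.0815 and 0.0474 CPM. Pmaip1 had a count in 24 of 73 and 46 of 127 oocyte libraries, Bak1 in 44 and 47 and Bcl2 in 55 and 89. Such intervals and limits cover counting error only, since the reads carry no molecular identifiers.

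In cumulus cells the order was another one, led by Mcl1, whose short-lived product protects many cell types. Its level per length was 59.5 ± 14.6 RPKM (n = 11) in the first set and 74.6 ± 19.1 RPKM (n = 30) in the second, or 57.1% and 63.7% of the members' sum. Bax followed without overlap with Mcl1, at 17.8 ± 2.16 and 14.0 ± 2.87 RPKM. Bcl2l1 (7.001), Bak1 (6.05), Bcl2l11 (6.00) and Bid (4.19 RPKM) overlapped with their neighbours in the first set, as did Bcl2l11 (9.52), Bcl2l1 (5.86), Bak1 (4.86) and Bid (4.77 RPKM) in the second. Bcl2l10, the leading member in oocytes, was at 1.49 and 0.975 RPKM, and Bcl2, Bbc3 and Pmaip1 lay between 0.117 and 0.581 RPKM. In CPM the cumulus level of Bcl2l10 was 0.162% and 0.0879% of its oocyte level. Oocyte markers in cumulus cells stood at 0.117% and 0.0735% of theirs, and the part of oocyte RNA in Bcl2l10 was not tested. Of the 128 cumulus libraries of the second set, 44 had a count of Bbc3 and 28 one of Pmaip1.

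**Figure D1:**
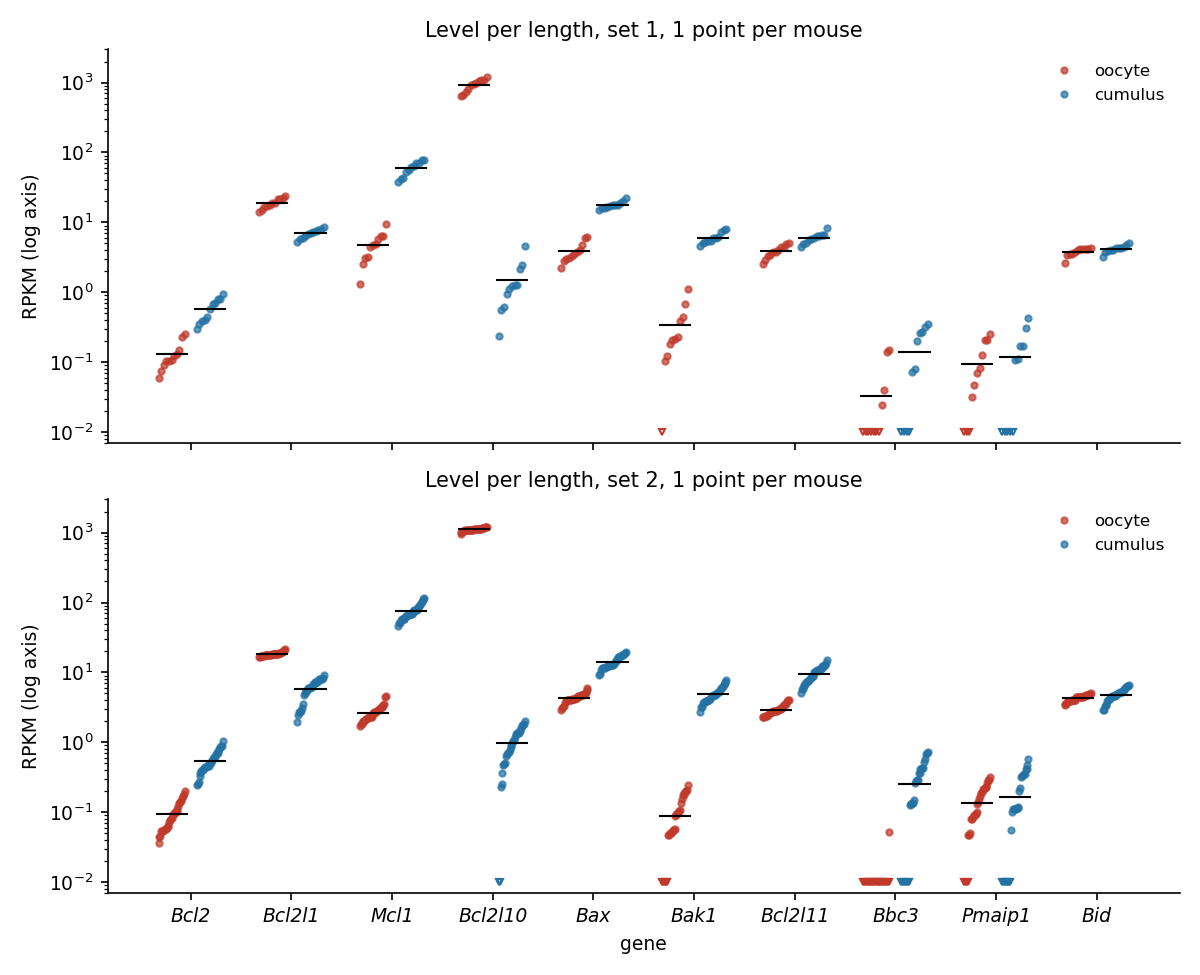
Level per length of the 10 members in each mouse (RPKM, log axis, points sorted from low to high, black bars are means, open triangles are mice below 0.01 RPKM) in oocytes and cumulus cells of the first set (11 mice) and the second set (30 mice). Bcl2l10 is highest in oocytes and Mcl1 in cumulus cells in both sets, and the mean of Bbc3 in oocytes of the second set (0.00173 RPKM) lies under the axis.

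Oocytes and cumulus cells of the same mice were then compared, with the mouse as a block. Of the 10 members, 7 differed between cell types in the first set (3 higher and 4 lower in oocytes, against 77.5% of all genes tested) and 9 in the second (3 higher and 6 lower, against 84.9%), so the members' share was near that of genes at large. Called here means an adjusted p under 5% from edgeR over all genes tested. The normalization by TMM put the median log2 difference of all genes at 0.00 for the first set and -0.24 for the second, and total counts put it at -0.77 and -0.64, so differences are given under TMM and read against these medians.

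Among the anti-apoptotic members, Bcl2l10 was higher in oocytes by a log2 difference of 10.25 (SE 0.28) in the first set and 10.62 (SE 0.11) in the second, in 11 of 11 and 30 of 30 mice. Bcl2l1 was higher in oocytes as well, by 2.25 and 2.21, again in every mouse. Mcl1 went the other way, with 16.2 ± 7.57 CPM in oocytes against 203 ± 49.7 in cumulus cells of the first set and 9.08 ± 2.42 against 255 ± 65.2 in the second, log2 differences of -2.86 and -4.30. Bcl2, the founding member of the family, was also lower in oocytes, by -1.24 and -2.03. Adjusted p-values of these 4 genes from edgeR were at most 0.000483 and 3.43e-17 in these sets. In the first set the oocyte level of Mcl1 was 7.95% of its cumulus level, beside the 4.81% at which cumulus markers stood in the same oocytes, and how much of it came from cumulus RNA was not tested.

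Both pore-forming effectors were lower in oocytes. Bax was at 6.10 ± 2.02 against 27.99 ± 3.41 CPM in the first set and 6.75 ± 1.06 against 22.1 ± 4.53 in the second (log2 differences -1.43 and -1.20). Bak1 was at 0.808 ± 0.773 against 14.6 ± 2.73 CPM and 0.215 ± 0.180 against 11.7 ± 3.09 (log2 differences -3.53 and -5.14). The oocyte level of Bak1 in the first set, 5.55% of that in cumulus cells, was close to the share of cumulus markers. Over single oocytes, Bak1 correlated with the share of cumulus markers with r = 0.62 (n = 73 oocytes, which share mice and depth) in the first set and 0.24 (n = 127) in the second, Bbc3 with 0.50 and 0.01, and Bax with 0.44 and 0.21. For Mcl1 r was 0.30 and -0.01, and for Bcl2l10, which is nearly confined to oocytes, 0.04 and 0.29. In the second set the share of cumulus markers rested mostly on Serpine2. The part of cumulus RNA in these levels was not tested.

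The BH3-only members did not move as a group. Bbc3 was lower in oocytes of the second set (log2 difference -4.18, adjusted p = 1.33e-12, lower in 21 of 30 mice) and was at -1.38 without a call in the first (adjusted p = 0.116), where the call appeared without Middle4 (-1.86, adjusted p = 0.0356) and under total counts (-2.23, 0.0188). Bcl2l11, a BH3-only protein that binds anti-apoptotic members, was called lower in oocytes of the second set alone (-1.17). In the first it was at 0.20 under TMM and reversed to -0.63 (edgeR adjusted p = 0.000382) under total counts. Without Middle3 its log2 difference in the first set was 0.32 and was called (adjusted p = 0.0269), and without Young1 it was 0.09. Whether the sets differ in these genes was not tested. Bid, which caspase-8 cleaves, was called higher in oocytes under TMM (0.68 and 0.36) but stood at -0.15 and -0.14 under total counts, and its CPM was lower in oocytes of 9 of 11 and 21 of 30 mice. Pmaip1 was not called in either set, with log2 differences of 0.68 and 0.20 under TMM and -0.19 and -0.29 under total counts. Its value in the first set was 0.42 without CR1, 0.39 without CR2, 1.06 without Middle1 and 0.36 without Middle2.

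Hyperovulation was compared within mice of 2 months. In cumulus cells Bcl2l1 was at 27.4, 27.8, 31.3, 33.8 and 37.4 CPM in the 5 mice after hyperovulation. In the 8 mice without it the lowest value was 8.92, the median 12.7 and the highest 24.8 CPM. The groups did not overlap, and the highest mouse without hyperovulation, 2moNoH7, stood apart from the next at 16.3 CPM. Bcl2l1 rose from 14.2 ± 4.78 (n = 8) to 31.6 ± 4.20 CPM (n = 5), a log2 fold change of 1.17 (SE 0.17, edgeR adjusted p = 0.000519, higher in 5 of 5 mice). It was the 1 member called of 10, against 1.67% of all genes tested, and leaving out each mouse in turn kept the fold change between 1.10 and 1.32 and the adjusted p at or below 0.00317. Over all genes the 492 calls of that comparison ranged from 209 without 2mo34 to 774 without 2moNoH7 and were 1048 by DESeq2.

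Mcl1 in the same cumulus cells was at 202, 226, 244, 262 and 315 CPM after hyperovulation, and its lowest, median and highest values without it were 269, 345 and 400 CPM. Of the 5 hyperovulated mice, 4 lay below all 8 others. The log2 fold change of -0.44 (SE 0.13) missed the threshold in edgeR (adjusted p = 0.0756) and passed it in DESeq2 (0.0185), with plate as a covariate (0.0478) and without mouse 2moNoH7 (-0.49, 0.0387), with adjusted p-values from 0.000188 to 0.216 over the alternatives. Plate was read from the start of the sample titles, and no source says that it marks one. The other 8 members in cumulus cells had log2 fold changes from -0.89 to 0.34, none called.

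Oocytes of the same mice showed no such difference. Bcl2l1 was at 84.7 ± 5.20 CPM after hyperovulation and 79.0 ± 2.46 without it, and Mcl1 at 9.57 ± 3.89 and 8.40 ± 1.39. Of the 9 members tested, 0 were called in oocytes (0% of all genes tested, by edgeR and by DESeq2), and 0 had an unadjusted p under 0.05. The difference between cell types was itself called for Bcl2l1, the 1 member of 10 (against 0.487% of genes), with an interaction of -1.05 (SE 0.19, edgeR adjusted p = 0.00229). In cumulus cells of hyperovulated mice of 4, 9 and 14 months Bcl2l1 stayed near the 2-month level, at 32.4 ± 6.43 (n = 8), 29.8 ± 5.92 (n = 4) and 31.3 ± 5.91 CPM (n = 5).

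The cumulus markers moved with this comparison too. Their sum was 12145 ± 2134 CPM without hyperovulation and 15717 ± 1396 after it, and 2moNoH7, the mouse with the highest Bcl2l1, also had the highest sum of its group (15418 CPM). Of the 12 markers 3 were called higher, Inhba (log2 fold change 2.04), Nr5a1 (1.11) and Fshr (0.91), and Gja1 remained the most abundant. Of 4 endothelial markers 1 was called higher (Cdh5, 2.16), yet their median was -0.56, with 2 at an unadjusted p under 0.05. The most abundant of them was Pecam1 without hyperovulation and Cdh5 after it. Of the theca or interstitial, luteal, leukocyte, stroma and oocyte markers 0 were called. Medians of these lists were 0.62, 1.15, 0.37, -0.88 and 0.05. At an unadjusted p under 0.05 were 2 of 5, 0 of 4, 0 of 3, 1 of 4 and 3 of 8. Among the 14 regulators of BCL2 family genes and proteins 1 fell, Ddit3 (CHOP, a stress-induced transcription factor that raises Bcl2l11), from 33.6 ± 11.2 to 17.1 ± 4.999 CPM (log2 fold change -0.98, adjusted p = 0.0212). In bulk pools such as these, fewer cells of a type and less RNA per cell cannot be told apart, and the part of the marker shift in the rise of Bcl2l1 was not tested.

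**Figure D2:**
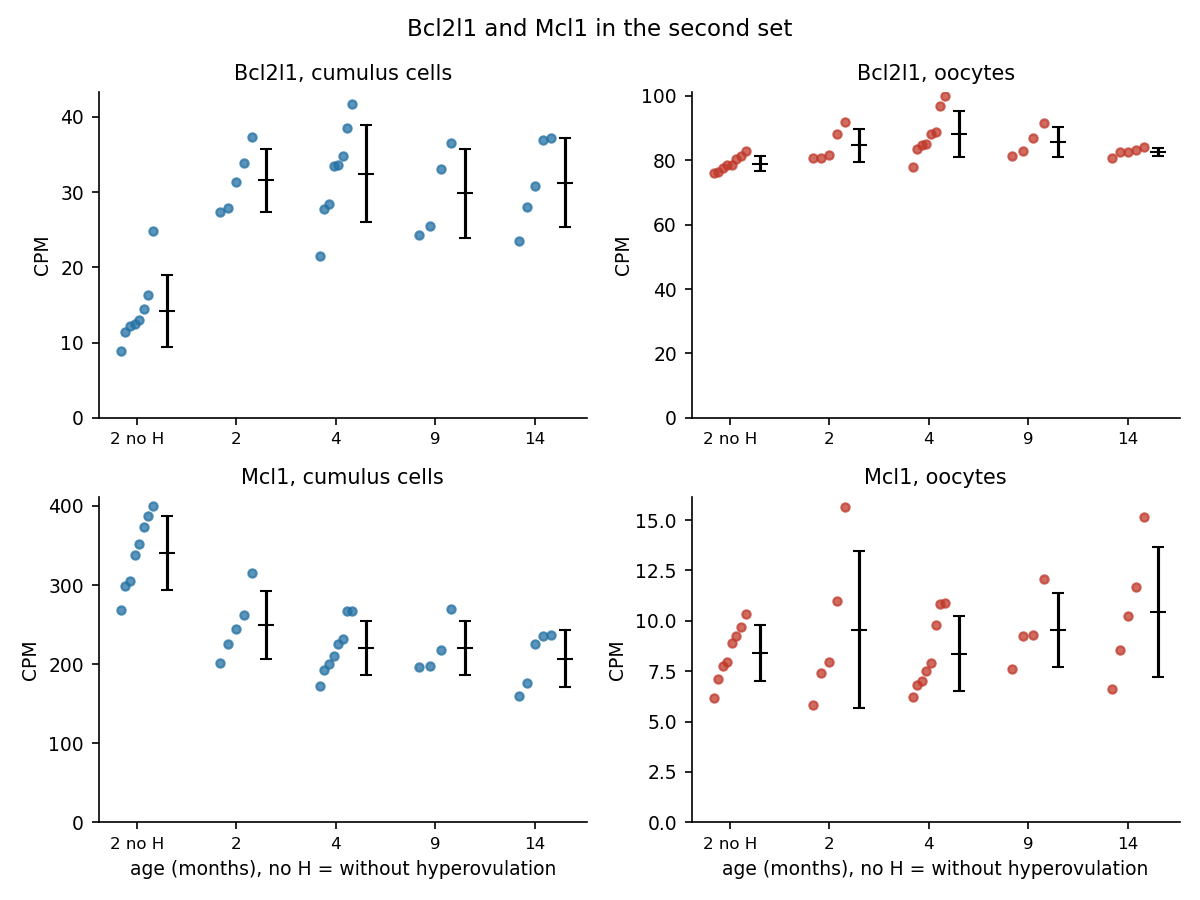
Bcl2l1 and Mcl1 in cumulus cells and oocytes of the second set (CPM on linear axes from 0, 1 point per mouse sorted from low to high, bars are mean ± SD) at 2 months without hyperovulation (2 no H) and at 2, 4, 9 and 14 months after it. In cumulus cells Bcl2l1 is lower in all 8 mice without hyperovulation (8.92 to 24.8 CPM) than in the 5 mice of 2 months after it (27.4 to 37.4 CPM).

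The start region of Bcl2l1, the member that changed, is printed with that of Mcl1, its neighbour in role. RefSeq windows on GRCm38.p6, from 250 bases before to 50 after a transcript start, were found for 8 of the 10 members (13 windows). The full cAMP response element TGACGTCA, searched on both strands because gonadotropins act through cAMP, was in 0 of the 13 windows and in 1.79% of 32851 windows of all genes. Its shorter core TGACG, which lies within the full element, was in 3 of the 13, of Bcl2, Mcl1 and Bbc3, and in 20.8% of all windows. The motif was chosen after the values were seen, and a match is a description only. The windows are chr2:152831679-152831978 on the minus strand for Bcl2l1, the outermost of its 3, and chr3:95658471-95658770 on the plus strand for Mcl1, with the core on the reverse strand in capitals.
Bcl2l1: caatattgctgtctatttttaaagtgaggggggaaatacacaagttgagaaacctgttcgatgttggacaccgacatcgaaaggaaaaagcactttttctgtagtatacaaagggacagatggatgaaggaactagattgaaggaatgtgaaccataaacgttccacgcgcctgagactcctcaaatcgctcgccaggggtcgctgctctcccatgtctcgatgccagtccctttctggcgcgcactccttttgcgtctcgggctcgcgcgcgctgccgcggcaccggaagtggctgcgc
Mcl1: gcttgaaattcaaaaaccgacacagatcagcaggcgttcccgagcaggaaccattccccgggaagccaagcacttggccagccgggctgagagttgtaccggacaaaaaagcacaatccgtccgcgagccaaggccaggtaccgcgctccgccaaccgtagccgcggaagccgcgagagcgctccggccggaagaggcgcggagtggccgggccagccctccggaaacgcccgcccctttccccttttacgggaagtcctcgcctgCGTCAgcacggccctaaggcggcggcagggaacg

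Calorie restriction was compared with ad libitum feeding at 9 months. In oocytes Bcl2l10 was at 886, 795 and 802 CPM in CR1, CR2 and CR3 and at 994, 1447, 1270 and 1167 CPM in Middle1 to Middle4. All CR mice lay below all middle mice. Bcl2l10 fell from 1220 ± 190 (n = 4) to 827 ± 50.9 CPM (n = 3), a log2 fold change of -0.49 (SE 0.14, edgeR adjusted p = 0.0399, lower in 3 of 3 mice), and still led the family. It was the 1 member called of 10 by edgeR, against 7.1% of all genes tested, and DESeq2 called 2. That background also depended on the mice, from 858 genes called without CR3 to 2534 without Middle3, beside 2067 with all mice and 3358 by DESeq2.

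That call depended on single mice. It was lost without CR1 (adjusted p = 0.104), CR2 (0.162), CR3 (0.114), Middle2 (0.137, log2 fold change -0.39) or Middle4 (0.0565). Bcl2l10 remained lower each time, with fold changes from -0.57 to -0.39. Markers of cumulus cells in these oocytes summed to 721 ± 218 CPM in CR and 795 ± 437 CPM in middle mice, led by Serpine2 in CR and Gja1 in middle mice, with 1 of 12 called (Kitl, higher). Of the luteal and endothelial markers 1 of 4 each was called (Akr1c18 lower, Tek higher). The luteal list had the largest shift, with a median of -4.54, 3 of 4 at an unadjusted p under 0.05 and sums of 91.7 ± 2.03 against 132 ± 46.6 CPM, led by Abcb1b. Middle4 stood apart with 162 CPM of theca or interstitial markers (2.65 to 3.63 in the other middle mice) and had the highest luteal sum (197 CPM, 98.3 to 133 in the others). Endothelial markers, led by Pecam1, summed to 111 to 120 CPM in CR and 84.4 to 98.2 CPM in middle oocytes, without overlap. Theca or interstitial and stroma markers had 0 of 4 called each, with 3 of 4 at an unadjusted p under 0.05 and median log2 fold changes of -3.54 and -2.30, at sums of 4.59 ± 1.61 against 42.9 ± 79.4 CPM and 3.98 ± 1.85 against 3.77 ± 3.55 CPM. Mitochondrially encoded RNA, led by mt-Rnr2, was at 0.975 to 1.73% of counts in CR oocytes and 0.716 to 0.848% in middle oocytes, without overlap. The part of any of these in the fall of Bcl2l10 was not tested.

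Other members of CR oocytes differed without a call. Bax was at 3.52, 4.72 and 4.34 CPM in CR mice and 7.40, 6.34, 9.37 and 5.57 in Middle1 to Middle4, without overlap (log2 fold change -0.63, edgeR adjusted p = 0.116, DESeq2 0.0468, from 0.0157 to 0.294 over the alternatives). Mcl1 was at 16.8, 31.9 and 19.6 against 21.8, 10.9, 4.44 and 15.3 CPM (0.77, adjusted p = 0.233, and 0.47 without CR2), and Bcl2 at 1.11, 2.29 and 2.11 against 1.35, 1.18, 0.987 and 0.964 CPM (0.80, adjusted p = 0.218). These last groups overlapped, and the lowest Mcl1 value was that of Middle3, which rests on 1 oocyte and had the lowest share of cumulus markers (1.79%). With Bcl2l10 these were the 4 members with an unadjusted p under 0.05, as had 21.4% of all genes.

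In cumulus cells between diets Bak1 was at 19.5, 17.2 and 18.5 CPM in CR mice and 12.3, 12.98, 12.98 and 14.2 CPM in middle mice. The groups did not overlap, yet the log2 fold change of 0.51 (SE 0.17, unadjusted p from edgeR 0.00918) was not called at an adjusted p of 0.324. Of the 10 members 0 were called by edgeR (against 0.0769% of genes) and 0 by DESeq2, and 1 had an unadjusted p under 0.05, as had 9.94% of all genes. The 22 calls over all genes became 0 without Middle2 and 103 without CR3, and were 370 by DESeq2. Of the marker lists 0 genes were called, with 3 of 4 luteal (median -2.16) and 3 of 12 oocyte markers (median 2.04) at an unadjusted p under 0.05. Luteal markers summed to 15.4 ± 5.27 in CR and 72.8 ± 92.3 CPM in middle mice, led by Sfrp4, and oocyte markers to 23.1 ± 17.1 and 20.8 ± 5.91 CPM, led by Kit. Their part in the level of Bak1 was not tested. Bcl2l10 in these cells was at 1.90 ± 0.993 and 2.28 ± 2.22 CPM, and the part of oocyte RNA in it was not tested.

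Whether diet acted differently in the cell types was tested as an interaction. By edgeR and by DESeq2 0 of 10 members were called (against 1.73% of genes by edgeR), and 2 had an unadjusted p under 0.05, as had 10.6% of all genes. The 599 calls over all genes ranged from 246 without CR2 to 855 without Middle3. They were 313 under total counts, 1164 by DESeq2 and 142 among the 17552 genes kept by the filterByExpr filter of edgeR. The interaction was -0.54 for Bcl2l10 (adjusted p = 0.856) and 1.10 for Mcl1 (0.0653), and without Middle4 it was called for Mcl1 (1.39, adjusted p = 0.0321, against 0.63 without Middle3). For Bcl2l10 it was -0.13 without CR3, -0.27 without Middle2, -1.04 without Middle3 and -0.20 without Middle4. The median of all genes in this interaction was 0.18 under TMM and -0.08 under total counts.

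**Figure D3:**
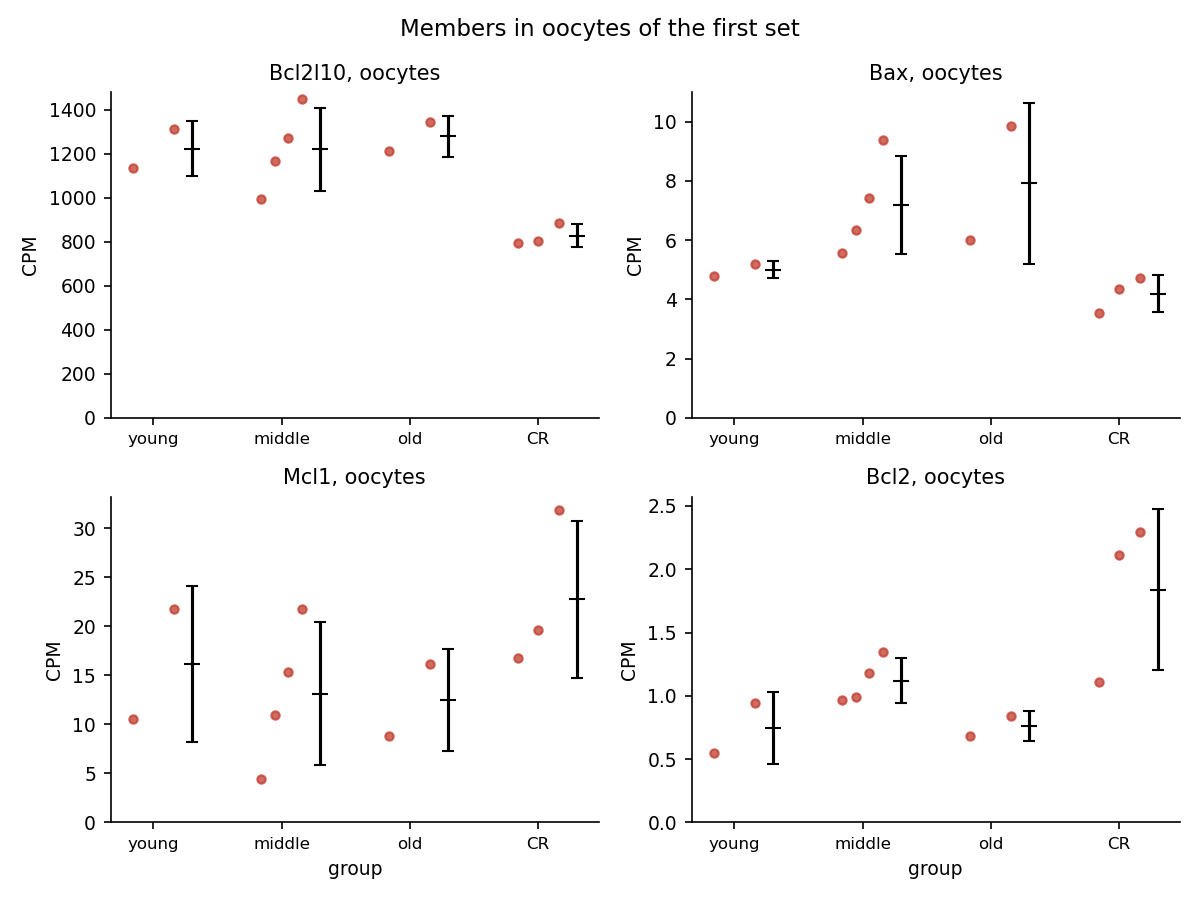
Bcl2l10, Bax, Mcl1 and Bcl2 in oocytes of the first set (CPM on linear axes from 0, 1 point per mouse label sorted from low to high, bars are mean ± SD) in 2 young, 4 middle, 2 old and 3 CR labels. The CR values of Bcl2l10 (795 to 886 CPM) and Bax (3.52 to 4.72 CPM) lie below all middle values, while those of Mcl1 and Bcl2 overlap with them.

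Age was compared in both sets, and each set's comparisons share their youngest mice. In oocytes of the first set Bcl2l1 was at 64.5 CPM in Old1_2 and 85.9 in Old3, and at 104 and 98.0 in Young1 and Young2. Bcl2l11 was at 23.2 and 27.2 against 39.1 and 35.6 CPM. For both genes the old values lay below the young ones, with log2 fold changes of -0.54 and -0.69, but neither was called (edgeR adjusted p = 0.523 for both). The value of Bcl2l1 was -0.28 without Old1_2 and -0.90 without Old3. Mitochondrially encoded RNA was at 1.65% of counts in Old1_2, 0.655% in Old3 and 0.657 and 0.780% in young oocytes. Of the marker lists 0 genes were called, with medians of 0.80 for cumulus, 2.38 for theca or interstitial and 3.24 for luteal markers. Theca or interstitial markers summed to 32.7 and 3.37 against 3.15 and 3.16 CPM. The part of such RNA was not tested. Bax was at 9.84 and 5.99 CPM in Old1_2 and Old3 and 4.79 and 5.20 in young mice, and Bak1 at 2.72 and 0.506 against 0.435 and 0.552, so the high Bak1 value belonged to Old1_2 alone, the label with the largest share of cumulus markers (9.26%). Bbc3 had 7 counts in Old1_2 (0.297 CPM), 1 in Old3 (0.0843 CPM) and 0 in young oocytes, which allows up to 0.0868 CPM. Its counts lay in 3 of 16 old oocyte libraries, and 1 library of Old1_2 held 5 of them (4.19 CPM), so most of the excess came from 1 oocyte. The highest old oocyte library was far above the median for Bak1 (14.7 against 0.712 CPM), Bax (48.2 against 7.58) and Mcl1 (52.8 against 9.05) as well.

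Of the 10 members in oocytes of the first set, 0 were called at 14 months by edgeR (against 0% of genes) or DESeq2, and 3 had an unadjusted p under 0.05, as had 9.42% of all genes. Over all genes DESeq2 called 10, edgeR 784 with genes counted in 1 library or more and 1613 with libraries as units. At 9 months 0 were called by edgeR (against 0%) or DESeq2, and 0 had an unadjusted p under 0.05. With 2 labels in a group these counts leave room for differences that went uncalled, and normalization moved the median of all genes between old and young oocytes from 0.04 under TMM to 0.18 under total counts.

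In oocytes of the second set the same genes had similar means from 2 to 14 months. Bcl2l10 was at 1364 ± 81.0 CPM at 2 months (n = 5), 1369 ± 58.0 at 4 (n = 8), 1354 ± 31.6 at 9 (n = 4) and 1319 ± 93.5 at 14 months (n = 5). Bcl2l1 was at 84.7 ± 5.20, 88.2 ± 7.21, 85.7 ± 4.61 and 82.7 ± 1.24 CPM, and Bcl2l11 at 24.5 ± 5.27, 24.8 ± 5.14, 20.6 ± 1.66 and 21.1 ± 2.52 CPM. The groups overlapped for each of the 10 members. By edgeR 0 of 9 members tested were called at 4, 9 and 14 months (against 0%, 0.0533% and 0.192% of genes), as by DESeq2, and 0 had an unadjusted p under 0.05. The interval of 2 SE around the log2 fold change at 14 months was -0.15 to 0.04 for Bcl2l10 and -0.16 to 0.08 for Bcl2l1. Whether the sets differ was not tested.

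In cumulus cells of the first set Mcl1 was at 177 and 189 CPM in Old1_2 and Old3, at 240 and 270 in young mice and at 241, 149, 269 and 144 in Middle1 to Middle4. Old and young did not overlap, and middle mice spanned both. The log2 fold changes of -0.54 at 14 months and -0.45 at 9 months were not called (edgeR adjusted p = 1 and 0.882). At each of these ages 0 of 10 members were called by edgeR (against 0.021% and 0.0035% of genes) or DESeq2, with 0 at an unadjusted p under 0.05.

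In cumulus cells of the second set Mcl1 was at 250 ± 42.8, 221 ± 34.2, 220 ± 34.6 and 207 ± 35.9 CPM at 2, 4, 9 and 14 months, with overlap throughout. Bid was at 16.2, 16.7, 17.2, 18.2 and 21.8 CPM at 2 months and at 10.4, 11.6, 14.0, 14.2 and 16.7 CPM at 14 months, so 4 of 5 old mice lay below all young ones (log2 fold change -0.44, unadjusted p from edgeR 0.0210, adjusted p = 0.597). Bak1 was at 14.4 ± 2.81 CPM at 14 months and 10.7 ± 1.18 at 2 months. Markers moved in this comparison too, with 3 of 5 theca or interstitial (median 0.35) and 3 of 4 stroma genes (median 0.78) at an unadjusted p under 0.05, none called. Their sums were 65.3 ± 29.5 and 7.99 ± 2.31 CPM at 14 months, against 49.7 ± 9.85 and 13.3 ± 6.92 CPM at 2 months. The part of these markers in the levels of Bid and Bak1 was not tested. By edgeR 0 of 10 members were called at 4, 9 and 14 months (against 0%, 0.0949% and 0.078% of genes), as by DESeq2, with 0, 0 and 1 at an unadjusted p under 0.05.

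**Figure D4:**
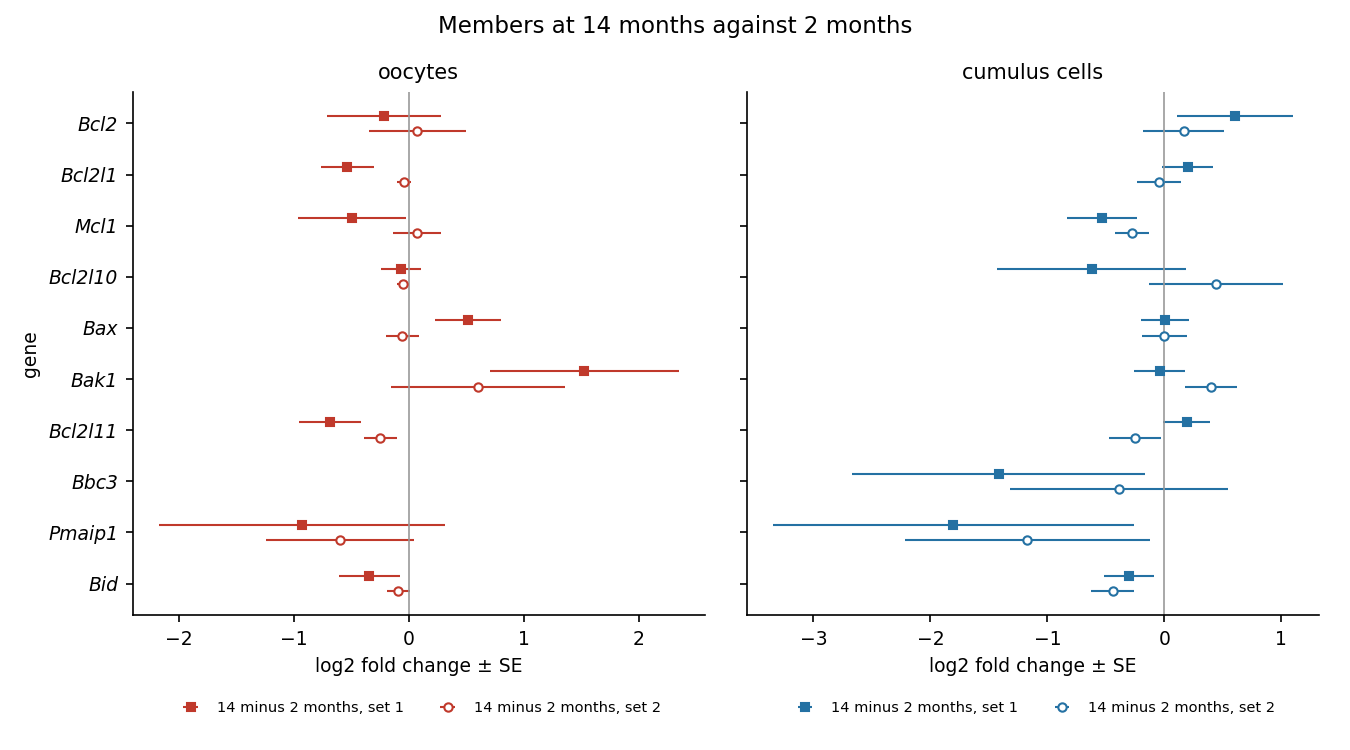
Log2 fold change ± SE of the members at 14 against 2 months in oocytes and cumulus cells (TMM), for the first set (squares, 2 labels against 2) and the second (circles, 5 mice against 5), with Bbc3 in oocytes left out because a group was at 0 counts or the gene was not tested. No difference shown was called, and in oocytes those of Bcl2l10 were -0.07 and -0.05.

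Transcripts were also summed by role. Members grouped as anti-apoptotic made up 98.5 to 99.0% of the members' RPKM in the groups of oocytes and 63.2 to 76.0% in cumulus cells. The share in oocytes rests on grouping Bcl2l10 with them, and its role was not tested here. The ratio of Bcl2, Bcl2l1 and Mcl1 to Bax and Bak1, per length, was 6.21 ± 1.15 in cumulus cells at 2 months without hyperovulation and 4.27 ± 1.03, 3.89 ± 1.21, 3.99 ± 0.666 and 3.39 ± 1.11 at 2, 4, 9 and 14 months. In oocytes of the second set it lay between group means of 4.69 and 5.08. In oocytes of the first set it was 7.99 in young, 5.12 in middle, 3.95 in old and 8.26 in CR mice, with SDs of up to 1.96, and in cumulus cells of that set 3.76, 2.79, 2.74 and 2.49. The ratio leaves out Bcl2l10. With it, anti-apoptotic members summed to 1029, 1023, 1068 and 702 RPKM in young, middle, old and CR oocytes. Cumulus markers stood at 3.50, 4.84, 6.69 and 4.39% of their cumulus level in the same groups, and their part in the ratios was not tested. The ratios are descriptions and were not tested.

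Other genes of the pathway were followed in 6 lists with 69 genes. In CR oocytes 11 of them were called, in a comparison that called 7.1% of all genes tested, and how many of them remain without single mice was not counted. Bik, a BH3-only gene, fell from 14.5 ± 2.34 to 7.95 ± 1.24 CPM (log2 fold change -0.79), 1 of 11 tested among the other BCL2 family genes. Among inhibitors of apoptosis 2 of 7 rose, Xiap, which blocks caspases, from 24.3 ± 4.55 to 63.6 ± 6.15 CPM (1.41) and Naip1 (0.93). Of 12 genes of the p53 family and its regulators 4 rose, the p53 antagonists Mdm4 (0.91) and Mdm2 (0.50), Atm (0.70) and Perp (1.57). Of the 14 regulators of BCL2 family genes and proteins 3 rose, the deubiquitinase of MCL1 Usp9x (0.68) and the ubiquitin ligases March5 (0.50) and Fbxw7 (0.57), and Vdac1 fell (-0.75). Of 12 apoptosome and caspase genes and 8 death receptor genes tested 0 were called by edgeR, with 2 and 1 at an unadjusted p under 0.05. The medians of these lists ran from -0.30 for other BCL2 family genes to 0.74 for inhibitors of apoptosis, beside 0.02 over all genes.

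In the age comparisons 0 genes of the 6 lists were called by edgeR in either cell type. In the interaction of diet and cell type Xiap (1.37), Mdm4 (1.26) and Trp63 (3.83) were called, and in that of hyperovulation Ddit3 (1.05). Trp63 was not among the genes called in CR oocytes. Its cumulus level was close to 0 in the second set (0.137 ± 0.332 CPM), and the part of low counts in its interaction was not tested. Markers moved in the interaction of diet too, with 3 of 13 oocyte markers called lower (median -1.05, 7 at an unadjusted p under 0.05), 2 of 12 cumulus markers higher, 1 of 4 luteal lower and 1 of 4 stroma higher, and their part was not tested. Between cell types of the second set, oocytes had more Trp63 (37.5 ± 4.47 against 0.137 ± 0.332 CPM), the p53 relative that guards oocytes against DNA damage, and more Birc3, Naip1, Chek1 and Bik. Cumulus cells had more Casp6 (36.4 ± 8.27 against 1.42 ± 0.673 CPM), more Apaf1, the scaffold of the apoptosome, and more Bok, a relative of Bax. In that set, where 84.9% of all genes tested were called, the calls in the lists came to 12 of 13 other BCL2 family genes tested (4 higher and 8 lower in oocytes), 11 of 12 apoptosome and caspase genes (4 and 7), 7 of 7 inhibitors of apoptosis (4 and 3), 7 of 8 death receptor genes (2 and 5), 12 of 12 of the p53 list (7 and 5) and 13 of 14 regulators (4 and 9). In the first set, where 77.5% of all genes were called, they were 8 of 13 (4 and 4), 10 of 12 (3 and 7), 7 of 7 (4 and 3), 7 of 8 (3 and 4), 11 of 12 (6 and 5) and 14 of 14 (7 and 7).

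The members also differed in how much single oocytes varied. Within mice of the second set the SD of log2 CPM over oocytes was 0.17 for Bcl2l10 and 0.20 for Bcl2l1, and 0.62 for Mcl1. Their median counts per oocyte were 2796, 173 and 17, so counting error adds more to the SD of Mcl1, and how much of the difference it makes up was not tested. Between mice of a group it was 0.08, 0.08 and 0.32. In cumulus cells of the second set the SD of Mcl1 within mice was the smallest of the members (0.34), while in the first set Bak1 (0.30) was below Mcl1 (0.32). In the second set Bcl2l1 varied by 0.55 within mice and 0.32 between them. The measure is log2(CPM + 1), so that it is small by construction for genes close to 0.

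Genes whose pattern over the 30 mice of the second set was most like that of a member were named by Pearson r, with r over the 11 mice of the first set after it. Bcl2l10 in oocytes was most like Prmt2 (0.77, then 0.66), Rnaset2b (0.76, then 0.90) and Bnip1 (0.76, then 0.81). Bcl2l1 in oocytes was most like Ccdc155 (0.80, then 0.49), Icmt (0.80, then 0.83) and Scap (0.79, then 0.95). Mcl1 in cumulus cells was most like Skil (0.88, then 0.97), Nup98 (0.87, then 0.69) and Sde2 (0.85, then 0.64), and Bak1 most like Lrrc41 (0.84, then 0.69). The best match of Bax, Arrdc4, had r of 0.75 in the second set and -0.11 in the first, and that of Bcl2l11, Myo5a, 0.73 and -0.21. For Bcl2 it was Jtb (0.63, then 0.50), for Bbc3 Klf4 (0.68, then 0.55) and for Pmaip1 Man2c1os (0.66, then -0.05). Mice share groups and libraries share depth, so these are descriptions.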

How the data were processed

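Values are expected counts deposited by the authors (trimmed reads mapped to GRCm38 with HISAT2 2.0.5, counted on GENCODE genes with featureCounts 1.5.1, multi-mapped reads shared), for 399 of 401 libraries. Of the nonzero values 36.8% (first set) and 35.1% (second set) were not whole. The design had assumed plain counts, so sums per mouse and cell type were rounded. The RPKM values the authors deposited for the second set gave gene lengths, those of the first set were not used, and columns of no sample numbered 0. The 2 libraries of 1 Middle3 complex were left out. Members and lists were chosen with earlier results of these data known. edgeR 4.0.16 under R 4.3.3 (TMM, quasi-likelihood F test, genes with a count in 5 or more libraries, Benjamini-Hochberg over all genes tested, FDR 5%) fitted all groups of a set together, with the mouse as a block between cell types. Alternatives were DESeq2 1.42.0, other filters, total counts, libraries as units, fits of 2 groups and all libraries. Others were plate (from the titles), no block, a replicate block and single mice left out (not between cell types of the second set). The method was tested on simulated data. Named are the members, at most 4 called genes per list by smallest p, and the 3 genes most like a member with a mean of at least 10 CPM. Python 3.11.15, numpy 2.4.6, pandas 2.3.3 and matplotlib 3.10.9 were used.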

Additional observations from a re-analysis of the deposited data

Results flagged for a closer look

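Of 116 pairs of a member and a group of 4 to 8 mice, 10 held a mouse whose gap to its nearest neighbour was large for the range of its group. Chance alone marks about 1 group in 20 if values are normally distributed, which low counts such as those of Bbc3 and Pmaip1 are not. Where every other mouse is at 0, as for Bbc3, the gap equals the range by construction. The number of flags is therefore not read against that rate. For Bax these were cumulus cells of 2moNoH8 at 14.6 CPM (nearest other mouse 19.1), oocytes of 14mo41 at 7.89 (6.84) and oocytes of 9mo23 at 7.38 (6.44). For Bcl2 it was oocytes of 2moNoH7 at 1.81 CPM (0.869), and for Bcl2l1 cumulus cells of the same mouse at 24.8 CPM (16.3). Pmaip1 stood apart in cumulus cells of 14mo39 at 1.10 CPM (0.308) and of 2mo34 at 1.53 CPM (0.307), and in oocytes of 2mo36, where it was at 0 CPM (0.517). Bbc3 had counts in oocytes of Middle4 (0.321 CPM) and of 2mo36 (0.110 CPM), with 0 in the other mice of each group.

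The effect of hyperovulation on Bcl2l1 differed between oocytes and cumulus cells, with an interaction of -1.05 on the log2 scale. In the left-out oocyte library of Middle3, used only where all libraries are taken, Mcl1 was at 166 CPM and Bcl2l10 at 27.4 CPM.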

How the results depend on the processing

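Of 122 alternative counts of members called that leave no mouse out, 109 kept within 1.5 times the reported count and 13 did not. With libraries as units, 1 member was called in old oocytes (Bcl2l1), 1 in old and 1 in middle cumulus cells (Mcl1 in each) and 1 in CR cumulus cells (Bak1). In CR oocytes libraries as units called 3 (Bax, Bcl2l10, Mcl1), DESeq2 2 (Bax, Bcl2l10), a count above 0 in 1 library 2 (Bcl2l10, Mcl1) and all libraries 0. Adding back the left-out library, whose oocyte markers were at 217 CPM, changes Middle3 by construction: Bcl2l10 went to -0.28 (adjusted p = 0.537) and Mcl1 reversed to -0.28. A replicate block by mouse number called 2 in CR oocytes (Bcl2l10, adjusted p = 0.0436, and Mcl1, 0.99, adjusted p = 0.0245); deviations of equal numbers in middle and CR mice had r of -0.21, 0.20 and 0.06 in oocytes and -0.10, -0.22 and -0.04 in cumulus cells, and in young and middle mice 0.50 and -0.06, each from 2 numbers that mirror each other. In middle against young oocytes that block called 281 genes, 0 of them members, against 0 genes without it. No source says that equal numbers were handled together. After hyperovulation DESeq2, filterByExpr, libraries as units and plate each called 2 in cumulus cells (Bcl2l1, Mcl1). Between cell types of the first set Bcl2l11 reversed with DESeq2 (-0.17), filterByExpr (-0.0014) and total counts (-0.63), Pmaip1 reversed with total counts (-0.19, and -0.29 in the second set), as did Bid (-0.15 and -0.14). Apart from all libraries, the cause was not tested.

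Leaving out 1 mouse gave 0 to 1 members called in CR oocytes, 1 to 2 in cumulus cells after hyperovulation, 0 to 1 in the interaction of diet, 7 to 8 between cell types of the first set, 1 to 1 in the interaction of hyperovulation and 0 to 0 in every other comparison run. A lone mouse left in a group is assumed to vary like the other groups. The interaction of hyperovulation was run without each of the 5 hyperovulated mice and not run without each of the 8 others. Between cell types of the second set no mouse was left out. Of 210 alternative values of single members, 187 kept direction and side of the threshold, 14 passed it, 1 fell short and 8 reversed; of 226 with a mouse left out, 217 kept both, 4 passed and 5 fell short. Low counts limit Bbc3, Pmaip1, Bak1 and Bcl2 in oocytes.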
